A study of Mus musculus with 56 samples.

Results

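The chromatin of 10 Kruppel-like factor genes (Klf2, Klf3, Klf4, Klf5, Klf6, Klf7, Klf9, Klf10, Klf13 and Klf16) was measured by the assay for transposase-accessible chromatin with sequencing (ATAC-seq) in clonal mouse granulocyte-monocyte progenitor (GMP) lines. The members were taken by name, and 199 of the 297361 peaks of the series, all of equal length, were centred within 25 kb of their transcription start sites (TSSs). The counts of all peaks within 10 kb of a TSS, 95 of these 199, were added to give 1 value per locus, and 18715 of 21755 protein-coding genes had at least 1 such peak. Values are given as CPM, counts relative to the library total on the usual CPM scale, corrected for library composition, and folds are on the log2 scale with their standard error (SE).

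The 56 libraries came from 28 clones, each grown from a single GMP of Tet2 fl/fl marrow. The design text speaks of 1 donor mouse, whereas the study's statement on cell lines speaks of donors of both sexes. The donor of each clone was not given in the sources used here. Every line carried Hoxb8-ER, an estradiol-dependent oncogene that holds progenitors in an immature, dividing state, and was kept in 0.5 µM beta-estradiol. Each clone gave a Tet2 knockout (KO) line, made by transient delivery of Cre, and a sister control line that received GFP in place of Cre and kept its floxed Tet2, which encodes an enzyme that oxidises 5-methylcytosine. GM-CSF at 10 ng/ml supported clones 19 to 22 (4 KO and 4 control lines) and SCF at 100 ng/ml supported the other 24 clones (24 KO and 24 control lines). For clones 20, 21 and 22 the sample titles say SCF, and GM-CSF was taken from the treatment label, which matches the study design and how the libraries are named. Each library was made from 1000 cells, and clones are the replicates. Between cytokines a p-value weighs a difference against clone-to-clone spread, which may include differences between donors. In the Tet2 comparisons, made within clones, it weighs the KO effect against how much the difference between sister lines varies among clones.

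Kruppel-like factors share a C-terminal array of zinc fingers that binds CACCC boxes and the GC boxes also used by Sp factors, and they differ in the N-terminal parts that recruit coactivators or corepressors. In the myeloid lineage Klf4 promotes monocyte differentiation and Klf2 restrains inflammatory activation of monocytes and keeps lymphocytes quiescent, while Klf6 favours inflammatory activation of macrophages. Klf10 is an early target of TGF-beta, Klf13 is known for late induction of Ccl5 in T cells, Klf3 is a CtBP-dependent repressor, Klf9 is induced by glucocorticoids, Klf5 drives epithelial proliferation, Klf7 supports neuronal outgrowth and Klf16 is a GC-box repressor.

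The sequences of the sites on which the results below turn are shown with CACCC and GGGCGG, on either strand, in capitals (GRCm38.p6, the assembly named mm10 in the labels; 5′ to 3′ on the strand of the gene, bases of untranslated regions left out). The first 4 sites, at Klf2 and Klf4, are those that passed the test between cytokines at these loci.
Klf2 promoter, peak centre 4 bp after the TSS, chr8:72318887-72319032, plus strand: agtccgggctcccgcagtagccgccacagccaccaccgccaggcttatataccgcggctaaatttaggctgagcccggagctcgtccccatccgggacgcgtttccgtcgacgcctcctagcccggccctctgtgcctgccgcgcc
Klf2 downstream site, 3595 bp after the TSS, chr8:72322478-72322777, plus strand: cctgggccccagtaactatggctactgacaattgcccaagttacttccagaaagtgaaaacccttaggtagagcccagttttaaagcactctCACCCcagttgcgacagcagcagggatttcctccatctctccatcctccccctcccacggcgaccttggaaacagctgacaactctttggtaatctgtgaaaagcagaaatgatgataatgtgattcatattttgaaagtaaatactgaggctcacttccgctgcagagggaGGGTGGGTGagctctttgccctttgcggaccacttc
Klf4 promoter, 91 bp before the TSS, chr4:55532476-55532707, minus strand: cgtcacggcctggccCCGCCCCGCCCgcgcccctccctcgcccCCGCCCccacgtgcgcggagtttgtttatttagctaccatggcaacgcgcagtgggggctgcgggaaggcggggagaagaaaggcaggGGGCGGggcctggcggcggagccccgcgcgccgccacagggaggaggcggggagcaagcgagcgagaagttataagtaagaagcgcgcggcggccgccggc
Klf4 coding exon, 2068 bp after the TSS, chr4:55530248-55530547, minus strand: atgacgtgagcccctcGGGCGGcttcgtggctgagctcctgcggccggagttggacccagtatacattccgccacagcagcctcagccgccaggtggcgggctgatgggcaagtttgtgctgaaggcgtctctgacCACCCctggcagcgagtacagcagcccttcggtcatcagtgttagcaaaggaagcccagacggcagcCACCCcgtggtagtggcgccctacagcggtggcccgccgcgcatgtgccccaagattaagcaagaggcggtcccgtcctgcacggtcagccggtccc

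The next 5 sites are the promoters of Klf7, Klf10 and Klf13, the loci that passed the test in Tet2 KO lines, and a second site each of Klf10 and Klf13 that differed between cytokines.
Klf7 promoter, 531 bp after the TSS, chr1:64121667-64121901, minus strand: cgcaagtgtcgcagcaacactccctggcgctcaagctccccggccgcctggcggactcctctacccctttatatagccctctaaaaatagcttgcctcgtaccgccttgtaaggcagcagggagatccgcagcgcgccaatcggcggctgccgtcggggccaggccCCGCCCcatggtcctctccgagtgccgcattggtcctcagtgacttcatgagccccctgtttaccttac
Klf10 promoter, 141 bp before the TSS, chr15:38300712-38300997, minus strand: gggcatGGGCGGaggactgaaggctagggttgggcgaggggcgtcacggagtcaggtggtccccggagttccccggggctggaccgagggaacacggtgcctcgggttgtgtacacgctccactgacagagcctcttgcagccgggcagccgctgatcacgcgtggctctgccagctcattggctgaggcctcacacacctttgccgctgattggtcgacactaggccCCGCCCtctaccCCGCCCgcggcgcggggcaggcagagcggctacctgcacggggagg
Klf10 upstream site, 1708 bp before the TSS, chr15:38302264-38302563, minus strand: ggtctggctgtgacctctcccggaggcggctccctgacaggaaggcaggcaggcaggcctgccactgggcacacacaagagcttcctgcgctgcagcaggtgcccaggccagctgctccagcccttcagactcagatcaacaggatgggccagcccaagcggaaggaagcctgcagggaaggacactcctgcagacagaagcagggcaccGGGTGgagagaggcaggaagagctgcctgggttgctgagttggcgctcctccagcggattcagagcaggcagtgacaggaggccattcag
Klf13 promoter, 184 bp before the TSS, chr7:63938949-63939248, minus strand: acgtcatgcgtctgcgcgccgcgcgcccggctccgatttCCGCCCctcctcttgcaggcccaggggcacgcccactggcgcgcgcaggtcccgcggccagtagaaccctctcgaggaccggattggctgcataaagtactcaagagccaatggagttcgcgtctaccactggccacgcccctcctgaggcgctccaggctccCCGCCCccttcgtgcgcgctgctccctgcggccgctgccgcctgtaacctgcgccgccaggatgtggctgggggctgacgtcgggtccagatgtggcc
Klf13 internal site, 2428 bp after the TSS, chr7:63936337-63936636, minus strand: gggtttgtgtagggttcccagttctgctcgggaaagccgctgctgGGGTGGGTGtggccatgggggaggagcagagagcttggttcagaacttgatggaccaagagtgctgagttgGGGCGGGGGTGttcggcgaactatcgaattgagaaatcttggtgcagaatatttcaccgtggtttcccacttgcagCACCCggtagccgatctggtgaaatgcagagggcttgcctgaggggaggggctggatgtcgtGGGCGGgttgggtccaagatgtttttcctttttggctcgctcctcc

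The printed Klf4 promoter held 4 GC boxes, that of Klf10 held 3, that of Klf13 held 2 and that of Klf7 held 1, whereas the printed bases of the Klf2 promoter held neither motif. The whole Klf2 promoter peak, with the bases left out, held 1 CACCC and 1 GGGCGG match. The Klf13 internal site held 4 CACCC and 2 GGGCGG matches, and the Klf2 downstream site held 3 CACCC matches. Across the 22 promoter peaks of the members, within 1 kb of a TSS of their own gene, GGGCGG was found in 72.7%, against 47.2% of all 25260 promoter peaks, and CACCC in 68.2%, against 64.7%. Across all 199 member peaks the shares were 19.1% for GGGCGG, against 11% of all peaks, and 59.8% for CACCC, against 56.2%. The other motifs searched, on both strands and with overlapping matches counted, were TGTGGT (RUNX) in 24.1% against 28.3%, TTGCNNAA (C/EBP) in 15.1% against 13.3%, TGANTCA (AP-1) in 12.6% against 12.2%, GAGGAA (ETS and PU.1) in 35.7% against 36.6%, AGATAA (factors of the Gata family) in 10.1% against 12.6% and TGACGTCA (CRE) in 0.503% against 0.537%. The member promoters had a median GC content of 65.3% and a median of 27 CpG, against 60.1% and 16 in all promoter peaks. A match describes these letters and not bound factors.

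Of the 199 peaks, 100 (50.3%) were intergenic, 58 lay in introns, 29 in promoters (22 of the member itself), 7 in coding exons and 5 in untranslated regions. Most were weak, with a median of 34 counts summed over the 56 libraries, against 29 for all peaks, and 25 had enough counts to be tested in at least 1 comparison. The promoter held from 42.4% of the 10 kb counts at Klf9 to 95.5% at Klf5. The members lie on 10 different chromosomes, and only Klf2 (3.88% of its counts, shared with Gm10282) and Klf16 (15.1%, shared with Abhd17a and Rexo1) have peaks that also count for another locus.

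Because every peak has the same length, the promoters can be ranked by the CPM of their strongest promoter peak in SCF control lines (n = 24). Klf13 was the most accessible, at 130 ± 32.6 CPM, followed by Klf10 at 90.1 ± 22.7 CPM, Klf16 at 83.5 ± 25.1 CPM, Klf6 at 80.9 ± 19.3 CPM, Klf7 at 73.9 ± 21.3 CPM, Klf9 at 63.9 ± 14.6 CPM, Klf2 at 60.4 ± 17.6 CPM and Klf3 at 57.4 ± 15.9 CPM. Klf4, at 37.2 ± 8.87 CPM, and Klf5, at 33.0 ± 12.1 CPM, were the least accessible. Neighbours in this order differed by less than the SD of either one, except Klf13 and Klf10, and Klf3 and Klf4. The strongest peak within 25 kb of Klf16 was not its own promoter but that of Abhd17a, 13081 bp upstream of the Klf16 TSS.

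Libraries held 39379 to 1079233 counts in peaks (median 389432.5), with 39379 to 468878 in GM-CSF KO, 88234 to 766838 in GM-CSF control, 130049 to 1079233 in SCF KO and 102302 to 1042973 in SCF control lines. The GM-CSF KO lines of clones 19 and 20 were the shallowest, and a count of 0 allows up to 66.2 and 65.8 CPM there (3 counts, counting error only). By a chi-square test on their counts 5 of 564 within-group pairs of libraries did not differ beyond sampling noise at 0.05. These were GM-CSF KO clones 19 and 20, 20 and 21, and 20 and 22, GM-CSF control clones 19 and 20, and SCF KO clones 13 and 16. They carry different clone numbers and were kept apart. In the comparisons of GM-CSF with SCF the number of members called in the 10 kb sums was the same with GM-CSF clones 19 and 20 counted once. Chromosome 1, which carries Klf7, held more counts than usual in both lines of clones 5 (1.18 times the median share in KO and 1.20 in control), 13 (1.14 in both) and 16 (1.10 in KO and 1.12 in control). The X chromosome share was 0.714 to 0.84 of the median in GM-CSF clones, 0.739 to 0.915 in SCF clones 23 to 29 and 0.961 to 1.09 in SCF clones 1 to 18. The cytokine folds of Klf4 and Klf2 are therefore also given against SCF clones 23 to 29 alone.

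The cytokine comparison asked which Klf loci were differently accessible in clones expanded in GM-CSF and in SCF. In control lines 2 members rose in GM-CSF, Klf2 and Klf7, where 5.76% of 12918 loci rose, and 1 fell, Klf4, where 6.63% of loci fell (edgeR quasi-likelihood test, Benjamini-Hochberg adjusted p under 0.05). In KO lines, the sister lines of the same clones and thus a second reading rather than an independent one, 0 of 10 members rose, where 4.37% of 11714 loci did, and Klf4 again fell, where 5.48% did (edgeR, 3 members at an unadjusted p under 0.05 in either direction, and Klf4 alone by DESeq2). The median fold of the members was 0.21 in control lines, against −0.01 over all loci, and 0.10 in KO lines, against −0.02.

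**Figure D1:**
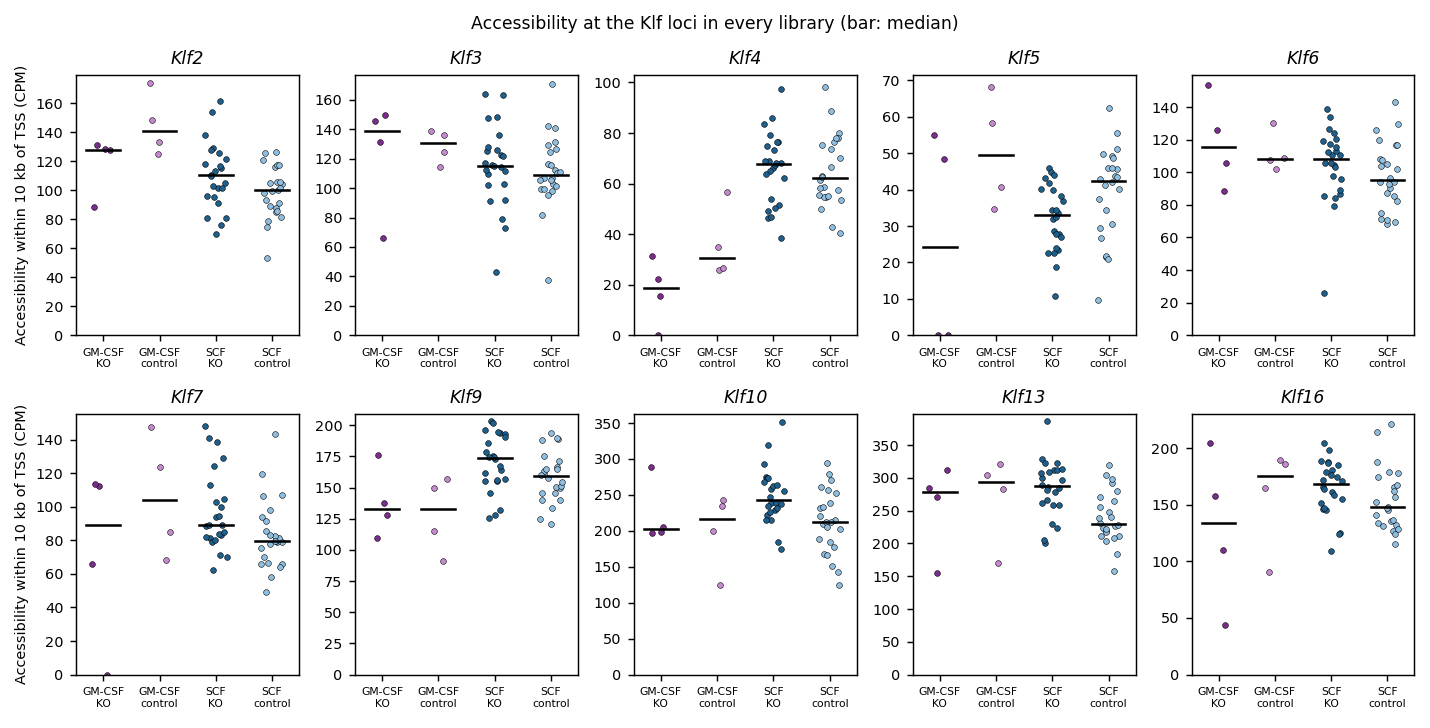
CPM in the 10 kb sum of each Klf locus (vertical axes) by group (horizontal axes, GM-CSF KO, GM-CSF control, SCF KO and SCF control), with 1 point per library and a bar at the group median. Klf4 lies at 0 to 31.5 CPM in GM-CSF KO lines, with 1 and 0 counts in clones 19 and 20. SCF KO lines start at 38.7 CPM.

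Klf4 (ENSMUSG00000003032.8, chr4:55527143-55532466, minus strand) had the largest fold between cytokines among the members. GM-CSF control lines of clones 19, 20, 21 and 22 had 34.8, 56.8, 26.0 and 26.6 CPM from 4, 5, 14 and 20 counts, against a lowest value of 40.6, a median of 62.0 and a highest of 98.2 CPM in SCF control lines. GM-CSF KO lines had 22.1, 0, 15.4 and 31.5 CPM from 1, 0, 7 and 13 counts, against 38.7, 67.7 and 97.4 CPM in SCF KO lines. All 4 GM-CSF KO lines thus measured below every SCF KO line, and 3 of 4 GM-CSF control lines lay below every SCF control line, the exception being clone 20 with its 5 counts. The KO values of clones 19 and 20 rest on 1 and 0 counts, and 0 counts in clone 20 allow up to 65.8 CPM. Their place below the SCF KO range is therefore uncertain. The share of all loci that separate in this way is not given here. The log2 fold was −1.11 ± 0.22 in control lines (adjusted p = 4.35e-05, edgeR) and −1.54 ± 0.28 in KO lines (adjusted p = 1.11e-05, edgeR). The call held in all 16 settings tried for each. Against SCF clones 23 to 29 alone the folds were −1.14 in control lines (adjusted p = 0.000417, edgeR) and −1.63 in KO lines (adjusted p = 1.77e-05, edgeR).

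Both the promoter and the gene body of Klf4 were involved. The promoter peak (chr4:55532407-55532707) had 17.4, 11.4, 16.7 and 13.3 CPM in GM-CSF control lines, against 23.5, 37.2 and 62.5 CPM (lowest, median and highest) in SCF control lines. In KO lines it had 0, 0, 8.80 and 12.1 CPM in GM-CSF, against 22.7, 42.6 and 62.6 CPM in SCF. The measured values of the groups did not overlap in either line. In the KO lines of clones 19 and 20, however, 0 counts allow up to 66.2 and 65.8 CPM, above the highest SCF KO line. The share of all peaks that separate in this way is not given here. The folds were −1.20 ± 0.28 (adjusted p = 0.000333) and −1.95 ± 0.38 (adjusted p = 3.13e-05) in control and KO lines by the same edgeR test over single peaks, where the threshold was 0.01. The peak in the coding exon (chr4:55530248-55530548) held 4 counts in the 4 GM-CSF control lines together, against 177 in the 24 SCF control lines, a fold of −2.35 ± 0.59 (adjusted p = 0.00118, edgeR). In KO lines it held 5 against 134 counts and was too weak to be tested. Without the control line of clone 22, the deepest of its group, the adjusted p of the control comparison was 0.0441 for the promoter peak and 0.167 for the exon peak (edgeR), with folds of −1.06 and −1.40.

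Klf2 (ENSMUSG00000055148.7, chr8:72319033-72321656, plus strand) moved the other way in control lines. GM-CSF control lines had 174, 125, 134 and 149 CPM, against 53.3, 100 and 127 CPM (lowest, median and highest) in SCF control lines. The GM-CSF values came from 20, 11, 72 and 112 counts. Of the 4 GM-CSF control lines 3 lay above the SCF range, and 22 of 24 SCF control lines lay below all GM-CSF control lines. How many loci in all separate this way is not given here. The fold was 0.54 ± 0.13 (adjusted p = 0.00125, edgeR). Against SCF clones 23 to 29 alone it was 0.61 (adjusted p = 0.00354, edgeR). Without the control line of clone 22 it was 0.52 with an adjusted p of 0.0604. GM-CSF KO lines had 88.2, 132, 128 and 128 CPM, inside the SCF KO range of 69.6 to 161 CPM with its median of 110, and the fold of 0.21 did not pass (adjusted p = 0.472, edgeR).

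In control lines 2 Klf2 peaks passed at 0.01 in the test of single peaks. The promoter (chr8:72318887-72319187) had 122, 68.2, 66.8 and 89.0 CPM in GM-CSF, against 8.88, 62.8 and 89.3 CPM (lowest, median and highest) in SCF, a fold of 0.56 ± 0.17 (adjusted p = 0.00827, edgeR). The site downstream of the gene (chr8:72322478-72322778) had 26.1, 56.8, 39.0 and 29.2 CPM, against 4.17, 19.5 and 35.8 CPM, a fold of 0.88 ± 0.27 (adjusted p = 0.00959, edgeR). In both peaks the ranges overlapped, and both adjusted p-values lay close to the threshold. The promoter was no longer called without the GM-CSF control line of clone 19, 20 or 22 (adjusted p up to 0.21) nor by DESeq2 (0.0420). The downstream site was lost without that of clone 19, 20, 21 or 22 (adjusted p up to 0.134) nor by DESeq2 (0.0309). The fold of the downstream site was 1.58 (adjusted p = 0.000258, edgeR) against SCF clones 23 to 29 alone and 0.66 (adjusted p = 0.0648, edgeR) against SCF clones 1 to 18 alone.

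Klf7 (ENSMUSG00000025959.13, chr1:64029447-64122282, minus strand) had 148, 68.2, 85.3 and 124 CPM in GM-CSF control lines, against 49.0, 79.9 and 143 CPM (lowest, median and highest) in SCF control lines. The groups overlapped over most of their range, the fold was 0.43 ± 0.15 and the adjusted p, 0.0443 (edgeR), was just under the threshold. The call held in 8 of 16 settings, and it was lost on leaving out any 1 of 10 of the 24 SCF control lines, where the adjusted p reached 0.0643. In KO lines the GM-CSF values were 66.2, 0, 112 and 114 CPM, from 3, 0, 51 and 47 counts. SCF KO lines had 62.3, 89.3 and 148 CPM, and the fold was 0.13 (adjusted p = 0.711, edgeR).

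The 7 other members did not pass in either line: Klf3, Klf10 and Klf13, described below, Klf5 (ENSMUSG00000005148.8, chr14:99298691-99315036, plus strand), Klf6 (ENSMUSG00000000078.7, chr13:5861482-5870394, plus strand), Klf9 (ENSMUSG00000033863.2, chr19:23141226-23168134, plus strand) and Klf16 (ENSMUSG00000035397.8, chr10:80567124-80577321, minus strand). Their folds ran between −0.25 (Klf9) and 0.38 (Klf5) in control lines and between −0.33 (Klf9) and 0.46 (Klf5) in KO lines. Klf5, which had few counts, was at 34.8, 68.2, 40.8 and 58.4 CPM in GM-CSF control lines, against 9.70, 42.5 and 62.5 CPM in SCF control lines (adjusted p = 0.237, edgeR). Its GM-CSF KO lines ran from 0 in clones 19 and 20 to 55.0 and 48.4 CPM in clones 21 and 22, against 10.7, 33.0 and 46.1 CPM in SCF KO lines. Klf9 was lower on average in both lines of the GM-CSF clones, at 138 and 128 CPM in KO and control lines, against 170 and 158 CPM in SCF KO and control lines, without passing the test (adjusted p = 0.153 and 0.204, edgeR).

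The remaining members lay inside or across the SCF ranges. Klf3 had 66.2, 132, 150 and 145 CPM in GM-CSF KO lines, against 42.7, 115 and 164 CPM (lowest, median and highest) in SCF KO lines, and 139, 136, 124 and 114 CPM in GM-CSF control lines, against 37.5, 109 and 171 CPM in SCF control lines. Klf6 had 88.2, 154, 106 and 126 CPM in GM-CSF KO lines, against 25.8, 108 and 139 CPM in SCF KO lines, and 130, 102, 108 and 109 CPM in GM-CSF control lines, against 68.4, 95.4 and 143 CPM in SCF control lines. Both had GM-CSF control lines within the SCF range, and clone 20 alone put a GM-CSF KO line of Klf6 above it. Klf16 ranged more widely in GM-CSF, with 110, 43.9, 205 and 157 CPM in KO lines, against 109, 168 and 205 CPM in SCF KO lines, and 165, 91.0, 189 and 186 CPM in control lines, against 115, 148 and 221 CPM in SCF control lines. Klf10 had 199, 198, 288 and 206 CPM in GM-CSF KO lines, against 175, 243 and 352 CPM in SCF KO lines, and 235, 125, 243 and 199 CPM in GM-CSF control lines, against 124, 213 and 295 CPM in SCF control lines. The low values of Klf16 came from clone 20, one of the shallow clones, and its folds were 0.22 in control and 0.06 in KO lines.

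**Figure D2:**
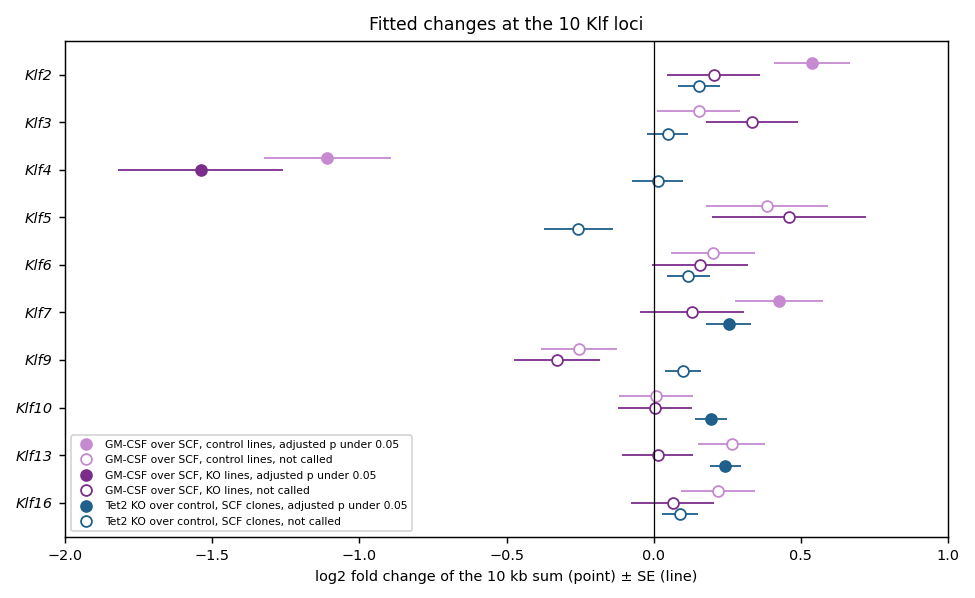
Log2 fold of each Klf locus (rows) with its SE in the tested comparisons (horizontal axis), with filled points for an adjusted p under 0.05. Klf4 stands at −1.11 in control and −1.54 in KO lines for GM-CSF over SCF, and the Tet2 KO folds of SCF clones lie between −0.26 and 0.26.

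Split by position, the promoter sums, within 1 kb of a TSS, gave Klf4 (−1.27 ± 0.28, adjusted p = 0.000378) and Klf2 (0.49 ± 0.16, adjusted p = 0.0324) in control lines by the edgeR test, where 10.4% of 9599 promoter sums passed. In KO lines Klf4 (−2.0 ± 0.39, adjusted p = 3.20e-05) and Klf3 (0.50 ± 0.17, adjusted p = 0.0494) passed by edgeR, where 8.32% of 8714 did. Distal sums took the peaks within 25 kb of a TSS of the gene and more than 1 kb from each of them. Of 9 tested distal sums, Klf4 passed in control lines (−0.88 ± 0.27, adjusted p = 0.0157, edgeR), where 13.8% of 13006 did. In KO lines the distal sum of Klf6 passed (0.81 ± 0.24, adjusted p = 0.0156, edgeR), where 10.7% of 11293 did.

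Of single peaks, 6 of 25 tested member peaks passed in control lines, where 14.7% of 13171 peaks did, and 1 of 19 in KO lines, where 10.2% of 9670 did. The remaining calls in control lines were at Klf10 and Klf13, whose 10 kb sums did not pass. The site upstream of Klf10 (chr15:38302264-38302564) had 0, 22.7, 11.1 and 6.64 CPM in GM-CSF control lines, against 0, 31.5 and 49.1 CPM (lowest, median and highest) in SCF control lines. It fell by 1.75 on the log2 scale (SE 0.36, adjusted p = 5.46e-05, edgeR), whereas the Klf10 promoter peak was at 0.31 ± 0.16 (adjusted p = 0.167, edgeR). In KO lines the upstream site had 22.1, 0, 19.8 and 7.26 CPM in GM-CSF, from 1, 0, 9 and 3 counts. SCF KO lines had 18.5, 31.4 and 63.0 CPM. The fold of −1.08 ± 0.38 missed the threshold of 0.01 (adjusted p = 0.0318, edgeR).

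The internal site of Klf13 (chr7:63936337-63936637), 186 bp from another annotated TSS of Klf13, had 34.8, 22.7, 31.5 and 35.9 CPM in GM-CSF control lines, against 0, 10.8 and 23.2 CPM in SCF control lines. The GM-CSF values came from 4, 2, 17 and 27 counts. In 3 of the 4 GM-CSF lines the site lay above every SCF line, and the fold was 1.63 ± 0.33 (adjusted p = 3.17e-05, edgeR). How many peaks in all separate this way is not given here. The main Klf13 promoter peak was at 0.29 ± 0.16 in the same test (adjusted p = 0.187, edgeR). In KO lines the internal site had 0, 65.8, 19.8 and 29.1 CPM in GM-CSF, from 0, 3, 9 and 12 counts. SCF KO lines had 0, 12.4 and 25.8 CPM, and the site was too weak there to be tested. Without the control line of clone 22 the adjusted p was 0.0263 for the Klf10 site and 0.0114 for the Klf13 site (edgeR), with folds of −1.44 and 1.54.

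**Figure D3:**
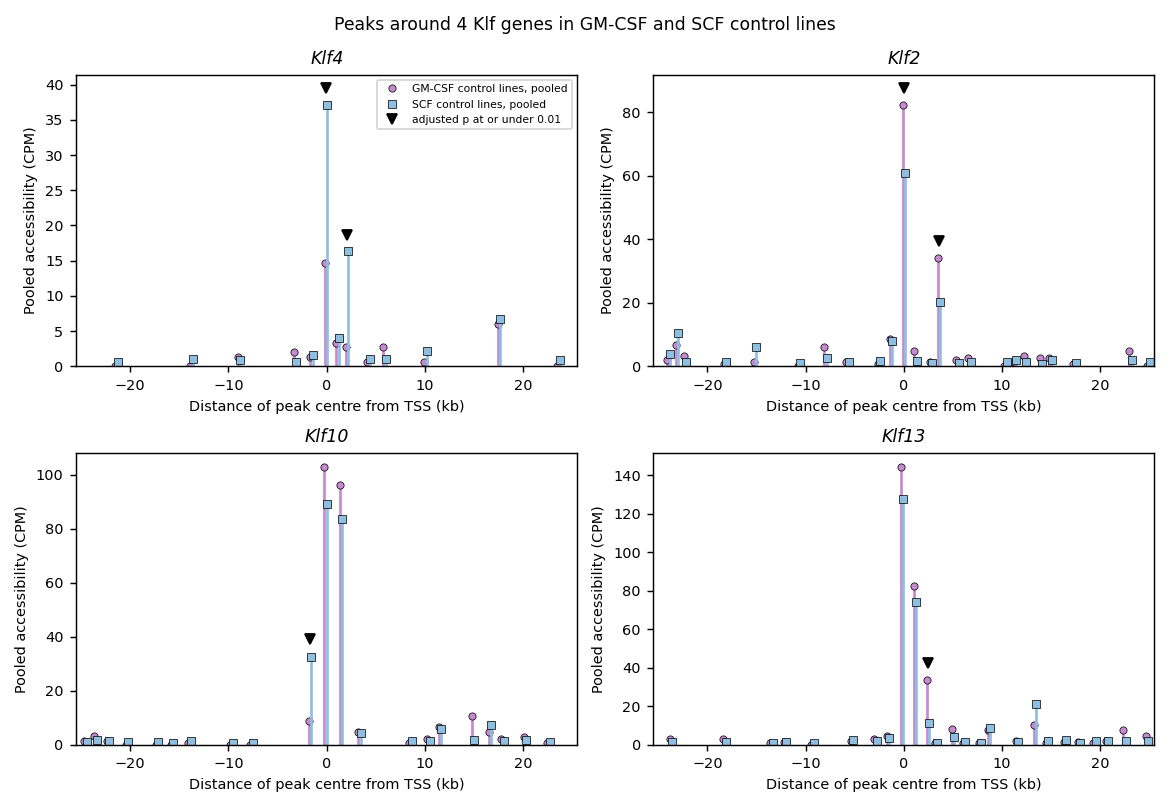
Pooled CPM of GM-CSF and of SCF control lines (vertical axes) at the peaks within 25 kb of Klf4, Klf2, Klf10 and Klf13. Horizontal axes give the distance of the peak centre from the TSS. Triangles mark peaks with an adjusted p at or under 0.01 between cytokines. Among them are the 2 Klf4 peaks (log2 folds −1.20 and −2.35), the Klf10 upstream site (−1.75) and the Klf13 internal site (1.63).

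Markers of other cell states moved with the cytokine too. Of 9 tested stem and early progenitor markers 7 fell in GM-CSF control lines and 0 rose, and their summed accessibility was 215 to 339 CPM, against 378 to 760 CPM in SCF control lines. Of 9 tested neutrophil markers 4 rose and 0 fell (400 to 548 CPM, against 244 to 444 CPM), and of 10 monocyte markers 3 rose and 1 fell. Of 10 GMP markers 2 rose and 5 fell (523 to 707 CPM, against 735 to 914 CPM), and 3 of 4 tested mast cell and basophil markers, 1 of 5 erythroid and megakaryocyte markers and 2 of 2 lymphoid markers fell. The lists overlap, so these counts are not separate. Kit and Cd34, which fell, are in both the stem and the GMP list, and Gata2, which also fell, is in both the stem and the mast cell list. Each gene of these lists had counts in at least 1 library, and Cebpa (129 ± 27 CPM) and Mpo (72.9 ± 19.7 CPM) were accessible in SCF control lines (SD, n = 24). The part of these states in the Klf results was not tested, and in bulk libraries fewer cells with an open site and less opening per cell cannot be told apart.

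The Tet2 comparison asked which Klf loci changed after loss of Tet2 within a clone. In the 24 SCF clones, with clone as a block, 3 of 10 members rose in KO lines, Klf13, Klf10 and Klf7, where 4.72% of 10427 loci rose, and 0 fell, where 1.47% fell (edgeR, adjusted p under 0.05). At an unadjusted p under 0.05 there were 5 members, and DESeq2 called 2. The changes were small: 9 of 10 members had a positive fold, the range was −0.26 to 0.26 and the median was 0.11, against −0.01 over all loci.

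Klf13 (ENSMUSG00000052040.10, chr7:63886351-63938915, minus strand) had 200, 287 and 386 CPM (lowest, median and highest) in SCF KO lines, against 158, 230 and 320 CPM in SCF control lines. It was higher in the KO line in 18 of 24 clones, with log2 ratios between −0.47 in clone 5 and 0.85 in clone 14, and the groups overlapped. The fold was 0.24 ± 0.05 (adjusted p = 0.000565, edgeR). Its promoter peak (chr7:63938949-63939249) was the only one of 18 tested member peaks to pass at 0.01, where 2.49% of 7871 peaks did: it had 105, 164 and 206 CPM in SCF KO lines, against 91.2, 122 and 223 CPM in SCF control lines. It was higher in 20 of 24 clones, a fold of 0.27 ± 0.07 (adjusted p = 0.0040, edgeR).

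Klf10 (ENSMUSG00000037465.10, chr15:38291463-38300706, minus strand) had 175, 243 and 352 CPM (lowest, median and highest) in SCF KO lines, against 124, 213 and 295 CPM in SCF control lines, and was higher in 16 of 24 clones. The fold was 0.19 ± 0.05 (adjusted p = 0.0133, edgeR). The call was kept on leaving out each clone in turn. Klf7 had 62.3, 89.3 and 148 CPM in SCF KO lines, against 49.0, 79.9 and 143 CPM in SCF control lines, and was also higher in 16 of 24 clones. Its fold was 0.26 ± 0.08 (adjusted p = 0.0244, edgeR). The call was lost without clone 8, 14, 16 or 18 alone (adjusted p up to 0.186). In the clones with a raised chromosome 1 share Klf7 had 88.7, 99.7 and 141 CPM in KO and 120, 143 and 77.7 CPM in control lines (clones 5, 13 and 16), and without them the fold was 0.28 ± 0.08 (adjusted p = 0.0199, edgeR).

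**Figure D4:**
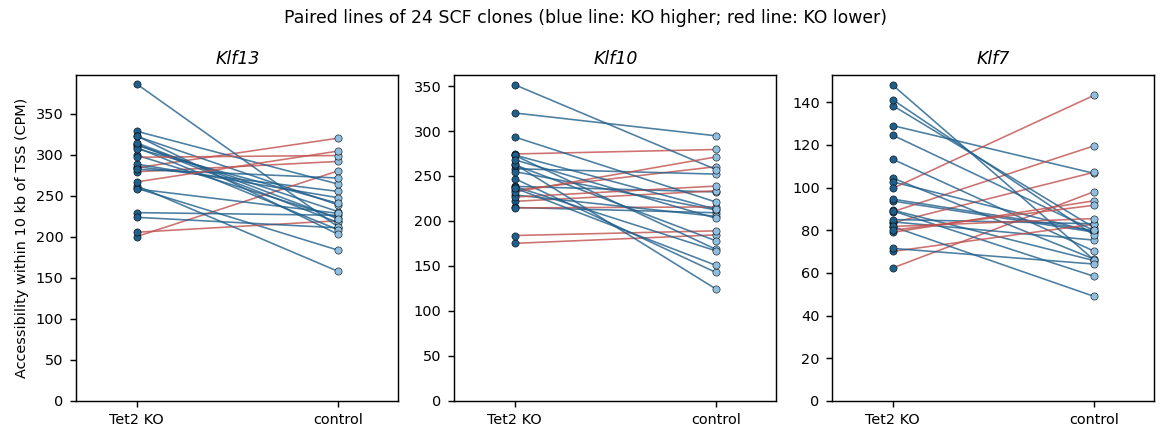
CPM in the 10 kb sums of Klf13, Klf10 and Klf7 (vertical axes) in the KO and control lines of the 24 SCF clones, with a line joining the sister lines. The KO line is higher in 18 of 24 clones for Klf13 and in 16 of 24 for Klf10 and Klf7.

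The 7 other members did not pass. Klf9 was higher in the KO line in 19 of 24 clones, with a fold of 0.10 (adjusted p = 0.347, edgeR), and Klf5 was lower in 16 of 24, with a fold of −0.26 ± 0.12 (adjusted p = 0.189, edgeR). Klf2 was at 0.15 (adjusted p = 0.195), Klf4 at 0.01 (adjusted p = 0.955) and Klf3 at 0.05 (adjusted p = 0.766) in the same edgeR fit. The promoter sums gave Klf13, Klf10 and Klf7 again, where 6.63% of 7604 passed, and 0 of 9 distal sums passed, where 2.5% of 9999 did (edgeR, 1 of 9 at an unadjusted p under 0.05).

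The share of a library's counts in promoters was 45.3% ± 5.3 in SCF KO lines and 43.6% ± 4.1 in SCF control lines (SD, n = 24 each), 1.75 percentage points higher on average and higher in 16 of 24 clones. With this share as a covariate, Klf13 still passed (0.17, adjusted p = 0.0368, edgeR), while Klf10 (0.14) and Klf7 (0.20) did not (adjusted p = 0.186 each, edgeR). The Klf13 promoter peak had a fold of 0.23 with the covariate and missed its threshold of 0.01 (adjusted p = 0.0387, edgeR). No member passed in the 7 SCF clones 23 to 29 alone, where 12 of all 10443 loci tested rose and 0 fell. The folds there were 0.22 for Klf13 (adjusted p = 0.466), 0.32 for Klf10 (adjusted p = 0.23) and 0.07 for Klf7 (adjusted p = 0.925) by edgeR. In clones 1 to 18 alone, where 231 of 10362 loci rose and 42 fell, Klf13 and Klf7 passed, with Klf10 at 0.15 (adjusted p = 0.201, edgeR).

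In the 4 GM-CSF clones 0 members differed between KO and control lines, where 0% of 13135 loci did (edgeR, 0 of 10 at an unadjusted p under 0.05, 0 by DESeq2). Folds ran from −0.34 to 0.22 with SEs of 0.15 to 0.39, so that shifts of the size seen in SCF clones were not detectable here. Klf13, for example, had 154, 285, 271 and 312 CPM in GM-CSF KO lines, against 322, 171, 304 and 283 CPM in GM-CSF control lines, higher in 2 of 4 clones. The KO effect in GM-CSF clones minus that in SCF clones ran from −0.37 to 0.15, and 0 members passed, where 0% of loci did (edgeR, 0 of 10 at an unadjusted p under 0.05, 0 by DESeq2).

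Differences between clones were compared with the agreement of sister lines over the 24 SCF clones. Klf3 (ENSMUSG00000029178.14, chr5:64803388-64832901, plus strand) was the only member to pass, with Pearson's r = 0.722 (permutation p = 0.00188, Benjamini-Hochberg adjusted over 10 members 0.0188) and Spearman's rho = 0.551 (permutation p = 0.00627, adjusted 0.0627). The rank correlation thus missed 0.05 after adjustment. Without clones 15 and 29, the farthest from the median, r was 0.48 (permutation p = 0.0235), and it was 0.271 within clones 1 to 18 (n = 17) and 0.902 within clones 23 to 29 (n = 7). Clone 29 had the lowest Klf3 value of the 24 in both lines, 42.7 CPM in KO (8 counts, 0.37 of the median) and 37.5 CPM in control (9 counts, 0.345 of the median). The 6 nearest tested loci stood at 0.418 to 1.49 of their medians in these libraries. The other members gave r from −0.403 (Klf6) to 0.38 (Klf4), with a median of 0.0652 over 10427 loci.

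**Figure D5:**
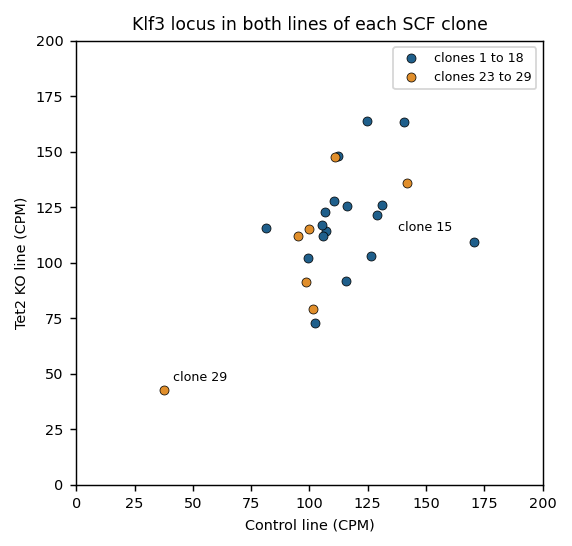
Klf3 CPM in the KO line (vertical axis) against the control line (horizontal axis) of each of the 24 SCF clones. Clone 29 is lowest in both lines, at 42.7 CPM in KO and 37.5 CPM in control.

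The biological coefficient of variation between SCF clones, the spread left after counting error, was 10% for Klf5, 9.04% for Klf10, 8.46% for Klf13, 8.02% for Klf7 and 7.84% for Klf16, above the median of 7.27% over 9544 loci. It was 6.92% for Klf3, 6.8% for Klf4 and Klf6, 6.69% for Klf9 and 5.42% for Klf2. Without clones 5, 13 and 16 the value of Klf7 was 6.27%, below the median.

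Over the 56 libraries, the loci on other chromosomes most like Klf4 in log2 CPM were Trio (Pearson's r = 0.878) and Itga4, an integrin subunit (r = 0.863). Within the 48 SCF libraries the values were 0.252 and 0.545. For Klf2 they were Fam166a (0.633, and 0.579 within SCF) and Tubb4b, a beta-tubulin (0.586 and 0.538), and for Klf7 Ap4m1 (0.843 and 0.215) and Mcm7, a subunit of the replicative helicase (0.842 and 0.173). The loci named for Klf2 both lie on chromosome 2 and those named for Klf7 both on chromosome 5, so the loci of a pair need not be independent. These are descriptions over libraries that share depth and cytokine.

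Among the 7 other Klf genes, 3 had enough counts to be tested in control lines. Klf11, a TGF-beta-inducible repressor close to Klf10, rose in GM-CSF control lines (0.51 ± 0.13, adjusted p = 0.00205, edgeR), and 0 of 2 passed in KO lines of the cytokine comparison or in the Tet2 comparison. Of the related Sp factors, which bind GC boxes, Sp4 (0.33, adjusted p = 2.46e-05) and Sp1 (0.26, adjusted p = 0.00155) of 6 tested rose in Tet2 KO lines of SCF clones in the edgeR test. Between cytokines 0 of 8 Sp factors passed in control lines, and Sp1 of 7 rose in GM-CSF KO lines (0.46, adjusted p = 0.007, edgeR). Of 12 cofactors and ubiquitin ligases of Kruppel-like factors, the corepressor scaffold Sin3a rose in Tet2 KO lines (0.16, adjusted p = 0.0424, edgeR) and Ctbp2, a corepressor bound by Klf3, rose in GM-CSF control lines (0.47, adjusted p = 0.0101, edgeR).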

How the data were processed

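The authors deposited whole-number counts per peak and library, without normalization, over 297361 peaks of equal length. Per the labels and the study's methods, Bowtie2 was the aligner, mm10 the genome build, and SAMtools and Picard were used on the alignments, and peaks were the union of summits called by MACS2 on single-cell ATAC-seq reads of sorted GMPs and other marrow cells, from stem cells to mature myeloid cells, and of ImmGen peaks. Not given in the sources used here were versions, the treatment of duplicate reads and the unit counted (fragments or insertions). A peak set made from other cells can miss sites open only in these lines.

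Peaks were assigned by distance of their centre to the TSS of protein-coding genes (GENCODE vM21), and counts were summed within 10 kb (alternatives: 25 kb, and promoters within 1 kb). Sums and single peaks with enough counts (filterByExpr, minimum count 10) were fitted with edgeR 4.0.16 in R 4.3.3 (quasi-likelihood F-test, TMM scaling, Benjamini-Hochberg adjustment over all features tested, thresholds 0.05 for sums and 0.01 for peaks). The Tet2 comparisons had clone as a block, since KO and control lines with the same number derive from the same clone, and those in GM-CSF clones were fitted on all 56 libraries. DESeq2 1.42.0 was an alternative. Sister lines were compared by Pearson's r and Spearman's rho of log2 CPM (prior count 2) with 100000 permutations, two-sided. The fits of the 10 kb sums in the SCF Tet2 comparison and the control-line cytokine comparison were also run on simulated counts with known folds. The simulation used the same spread for every locus and no clone effect, unlike the data, and its outcome is not given here.

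All 10 members were named in each comparison of loci. Named peaks were those that passed and the strongest of each member, and up to 4 genes that passed were named per list. The members, lists and rules were chosen with earlier results of these data known.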

Additional observations from a re-analysis of the deposited data

Results flagged for a closer look

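Of 20 sets of 4 GM-CSF lines tested (10 members, KO and control lines), 2 held a line far from the other 3 by Dixon's criterion, which chance alone gives in about 1 set of 20. Klf2 had 88.2 CPM in the GM-CSF KO line of clone 19, from 4 counts, with the nearest other line at 128 CPM. Klf10 had 288 CPM in the GM-CSF KO line of clone 21, with the nearest other line at 206 CPM.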

How the results depend on the processing

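Of the 3 members that rose in KO lines of SCF clones, 1 (Klf13) was called with the promoter share as a covariate and 0 in clones 23 to 29 only, where Klf13 had a fold of 0.22 and Klf10 of 0.32, against 0.24 and 0.19 in all 24 clones (adjusted p = 0.466 and 0.23 in the 7 clones, edgeR). Without the replicate block on clone 2 members were called, Klf13 and Klf10, and Klf7 had an adjusted p of 0.0552 (edgeR). Without clones 5, 13 and 16 Klf10 had 0.0506. In GM-CSF clones the fit without the block gave 0 members, as with it. For GM-CSF over SCF in control lines the count of 3 lay between 1 and 3 when each GM-CSF line was left out in turn, the lowest without clone 22. Leaving out each SCF clone in turn, an alternative chosen after seeing the data, kept the calls of Klf13, Klf10, Klf4 and Klf2. In KO lines the single call of Klf4 became 2 calls with the 25 kb window (Klf5, 0.89, adjusted p = 0.00392, edgeR) and 2 with the 1 kb promoter window (Klf3). No member's call changed its direction under any alternative.

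Over all loci, 492 rose and 153 fell in SCF KO lines, against 323 and 28 by DESeq2, 250 and 44 with the promoter share as a covariate, 231 and 42 in clones 1 to 18 and 12 and 0 in clones 23 to 29. The 744 higher and 856 lower loci of the cytokine comparison in control lines became 470 and 591 without clone 21 and 293 and 341 without clone 22, and the 512 and 642 in KO lines became 263 and 377 by DESeq2, 167 and 265 without clone 21 and 139 and 240 without clone 22. With 4 GM-CSF clones, of which 19 and 20 were shallow, small differences at weak peaks were below what these libraries resolve, and 174 of the 199 member peaks could not be tested.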

Other observations

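Genes upstream and downstream of the Kruppel-like factors were described by lists of 13 each. Of the upstream regulators, Spi1, which encodes PU.1, rose in GM-CSF control lines (0.60, adjusted p = 0.00165, edgeR), the only call of 12 tested. In GM-CSF KO lines Spi1 (0.74) and Tgfbr2 (0.76), a TGF-beta receptor, rose and Smad3 (−0.89), a transducer of that receptor, fell, of 11 tested. Of the target genes, S1pr1, a Klf2 target in T cells that directs their exit from lymphoid organs, fell in GM-CSF control lines (−1.74), as did the cyclin gene Ccnd1 (−0.80), and Lgals3, which encodes galectin-3, rose (1.15), of 11 tested. Lgals3 (1.48) was also the only call of 11 in KO lines. In Tet2 KO lines of SCF clones 0 of 11 upstream regulators and 0 of 9 targets passed the edgeR test.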
